A study of Mus musculus with 45 samples.

Results

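The comparison described here is day 4 against day 2 of treatment with doxycycline and F/R/C in mouse embryonic fibroblasts (MEFs) that carry an inducible MyoD. It rests on the 6 libraries titled for those days and that treatment, 3 per day and joined by replicate number, out of 45 bulk RNA-seq libraries in 15 groups of 3. All groups of the course share the genotype Tg:Pax7-nGFP/C57BL6;DBA2, a reporter that puts nuclear GFP under Pax7, and a MyoD transgene switched on by doxycycline (Dox). The groups used for reference were Dox without F/R/C for 2 and 4 days, called MyoD alone below, again 3 libraries each. The 3 untreated MEF libraries and the later days of both treatments (6, 8 and 10) entered the fit of the spread. MEFs are a mixed population of embryonic mesenchymal cells, the libraries are bulk, and the labels call the treated cells muscle fibres together with progenitors. The labels do not say whether the replicate numbers stand for separate animals or cultures, so p-values measure the spread between these libraries.

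MyoD, encoded by Myod1, is a basic helix-loop-helix factor that binds E-box sequences and switches fibroblasts to skeletal muscle. It acts with myogenin and MEF2 factors, first on regulators and early sarcomere genes and later on the genes of mature fibres. Muscle cells leave the cell cycle, fuse and build sarcomeres, in which myosin thick filaments slide along actin thin filaments anchored at Z-discs. The labels do not spell out F/R/C. In the published protocol for induced myogenic progenitor cells the letters stand for forskolin, which raises cAMP, RepSox, which blocks the TGF-beta receptor kinase, and CHIR99021, which blocks GSK3 and so activates beta-catenin. Under MyoD alone the cells become myotubes, and with F/R/C they also give progenitors that resemble muscle stem cells.

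Between day 2 and day 4 with F/R/C, genes of the sarcomere, of excitation-contraction coupling and of muscle energy supply rose. Of 23 fibroblast genes 3 were called lower. No cell cycle gene was called, but 23 of 24 had log2 fold changes below 0. The 46 genes of the thick and thin filament lists together took 2.27%, 3.74% and 2.31% of TMM-scaled reads in the 3 day 2 libraries and 6.21%, 8.86% and 7.49% in the day 4 libraries. All day 4 libraries lay above all day 2 libraries. In these bulk samples more muscle cells and more RNA per muscle cell cannot be told apart. Of 16688 genes tested with edgeR's quasi-likelihood test, 1442 were called, which is 8.64%: 1199 were higher on day 4 (7.18%) and 243 were lower (1.46%). Called means that the p adjusted by Benjamini-Hochberg was under 0.05 and that the level changed by 1 or more on the log2 scale. In 1104 of the 1199 genes called higher and 215 of the 243 called lower, the 3 day 4 libraries did not overlap the 3 day 2 libraries. Over all 16688 genes tested, 2925 had every day 4 library above (17.5%) and 3092 every day 4 library below (18.5%). With no minimum fold change, 3474 genes passed, 1940 higher and 1534 lower, so that 55.8% of them were higher against 83.1% of the genes called. The count fell to 808 without replicate 2 and to 720 without replicate 3, against 1178 without replicate 1.

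**Figure D1:**
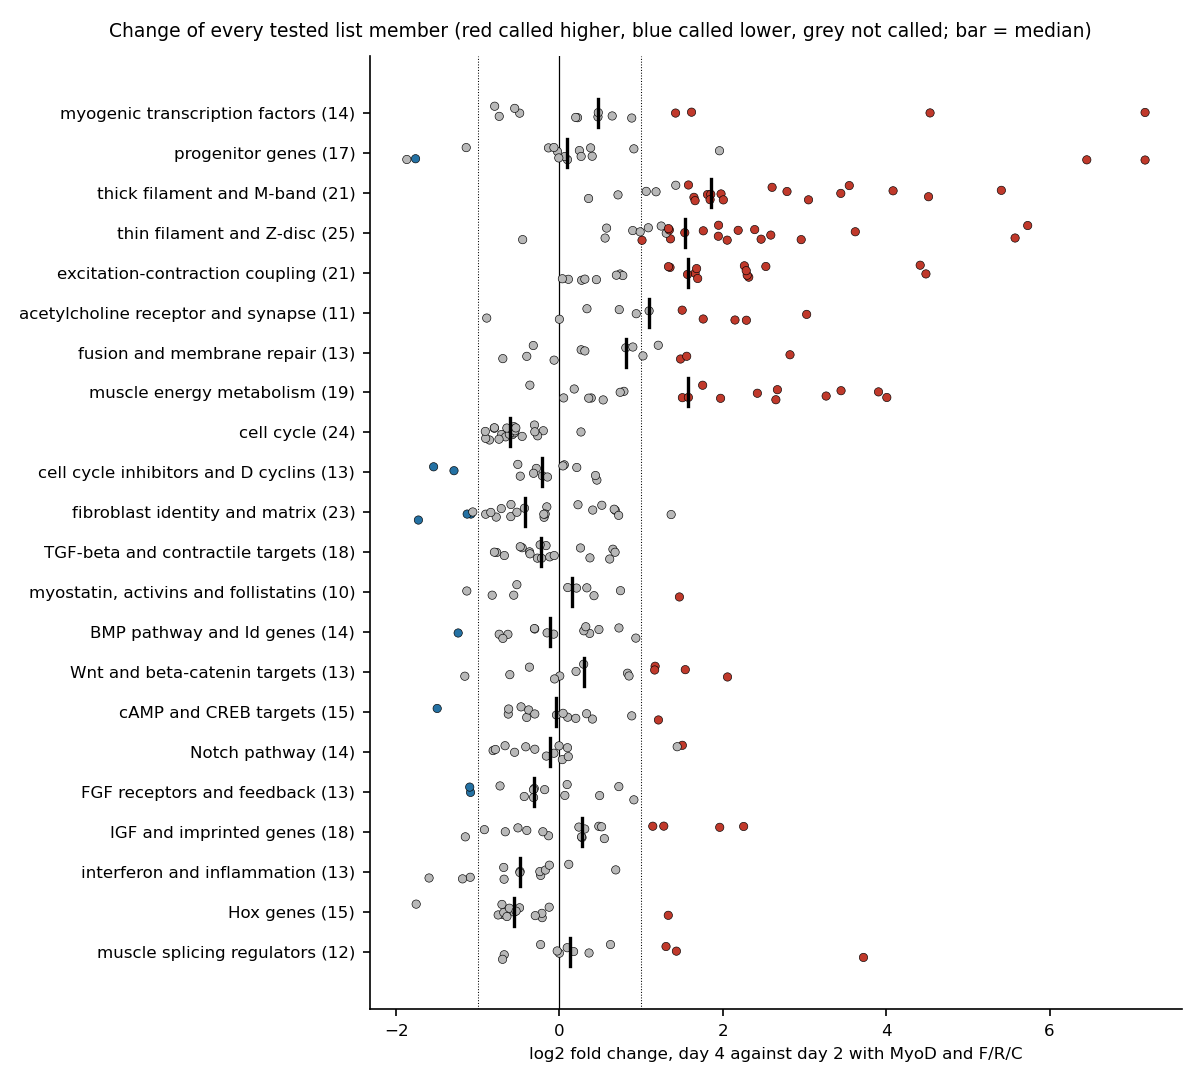
Log2 fold change from day 2 to day 4 with MyoD and F/R/C of every tested member of 22 gene lists (number of members in brackets, 3 libraries a day). Red points were called higher, blue points lower, grey points were not called, bars are list medians and dotted lines mark a log2 fold change of 1 either way; the sarcomere, excitation-contraction and muscle energy lists lie to the right of 0, with medians of 1.85, 1.53, 1.57 and 1.58.

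Libraries were of similar depth, from 21240897 to 24026956 assigned reads in the 6 compared. Replicates of a day correlated with r from 0.981 to 0.989 across genes, and no pair was so close in its counts that it had to be counted as 1 sample. The summed level of 6 skeletal muscle markers was 8820 to 14908 CPM (read counts scaled to the library total) on day 2 and 22193 to 29742 CPM on day 4, without overlap. The summed level of 6 fibroblast markers was 3098 to 5715 CPM on day 2 and 1614 to 3450 CPM on day 4, so the ranges overlapped and fibroblast RNA was still present. By TMM-scaled reads this sum was lower on day 4 in each same-numbered pair. Markers of smooth muscle, which fibroblasts and early muscle cells share in part, were abundant, with 5 genes summing to 2611 to 4781 CPM on day 2 and 1971 to 4193 CPM on day 4. The 8 neuron and glia markers summed to 94.7 to 189 CPM over both days, the 6 cartilage and bone markers to 41.7 to 50.4 CPM and then 21.7 to 29.4 CPM, and the 6 epithelial markers to 9.02 to 29.1 CPM. Endothelial and macrophage markers were scarcer, with sums of at most 5.49 CPM for 6 endothelial and 4.53 CPM for 6 macrophage markers in the 6 libraries. The replicates also differed in sex-linked genes: Xist was at 283 to 409 CPM in replicates 1 and 2 and at 0 in replicate 3 on both days. Y-linked genes summed to at most 0.702 CPM in replicates 1 and 2 and to 152 and 151 CPM in replicate 3. By these genes replicate 3 was male and replicates 1 and 2 female, so leaving out replicate 3 also left out the male libraries. Tyrobp, a marker of myeloid cells, and Krt5 and Krt14, keratins of basal epithelium, had no reads in any of the 6 libraries.

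The induced gene itself was not called. Myod1 (chromosome 7, 46376474 to 46379099, GRCm38) was at 785, 1321 and 718 CPM on day 2 and at 876, 1305 and 1012 CPM on day 4. The change was 0.22 in log2 units (SE 0.47), with an adjusted p of 0.774 by edgeR's quasi-likelihood test. The libraries of the 2 days overlapped, and replicate 2 was the highest on both. Transgene and endogenous transcripts of Myod1 were not separated. The levels were lower than with MyoD alone, whose 3 libraries had a mean of 2541 CPM with an SD of 788 on day 2 and of 3109 CPM with an SD of 1537 on day 4.

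Promoter sequences are shown for 4 muscle genes called higher, one each for creatine kinase (Ckm), calsequestrin (Casq1), skeletal actin (Acta1) and fast myosin (Myh4), as examples of the short motifs that MyoD and its partners are known to bind. Each line gives the 250 bases before the start site in the RefSeq table (build GRCm38.p6), 5′ to 3′ on the strand of the gene. Capitals mark every match to 5 motifs searched on both strands: the E-box CAGCTG, the E-box CACCTG, which reads CAGGTG on the other strand, the TEAD motif CATTCC, which reads GGAATG there, the CArG box of serum response factor and the MEF2 box. The windows are chr7:19410844-19411093 on the plus strand for Ckm, chr1:172219896-172220145 on the minus strand for Casq1, chr8:123894776-123895025 on the minus strand for Acta1 and chr11:67237562-67237811 on the plus strand for Myh4.
Ckm: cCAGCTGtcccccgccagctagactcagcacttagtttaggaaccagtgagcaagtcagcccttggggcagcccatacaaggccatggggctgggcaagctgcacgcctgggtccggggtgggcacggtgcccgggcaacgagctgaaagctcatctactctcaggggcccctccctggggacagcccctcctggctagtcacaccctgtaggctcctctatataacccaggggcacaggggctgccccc
Casq1: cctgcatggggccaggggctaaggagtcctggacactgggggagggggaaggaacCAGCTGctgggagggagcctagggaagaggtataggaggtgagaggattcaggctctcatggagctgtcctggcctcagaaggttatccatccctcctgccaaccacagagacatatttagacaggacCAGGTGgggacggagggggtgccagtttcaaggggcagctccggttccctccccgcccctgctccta
Acta1: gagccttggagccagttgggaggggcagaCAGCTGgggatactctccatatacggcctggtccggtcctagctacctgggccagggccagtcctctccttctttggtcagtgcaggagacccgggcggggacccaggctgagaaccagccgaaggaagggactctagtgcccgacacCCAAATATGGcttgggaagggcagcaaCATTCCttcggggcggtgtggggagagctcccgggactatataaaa
Myh4: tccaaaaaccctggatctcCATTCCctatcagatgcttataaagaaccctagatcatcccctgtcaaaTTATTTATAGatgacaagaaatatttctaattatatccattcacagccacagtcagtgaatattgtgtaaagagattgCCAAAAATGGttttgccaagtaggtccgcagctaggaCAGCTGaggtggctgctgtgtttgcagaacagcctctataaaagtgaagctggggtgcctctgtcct

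In Myh4 the CAGCTG began 67 bases before the start, the CArG box 104, the MEF2 box 182 and the CATTCC 231 bases before it. In Acta1 the CATTCC began 46 bases, the CArG box 73 bases and the CAGCTG 221 bases before the start. Casq1 held CAGGTG, the reverse complement of CACCTG, 67 bases before the start, and CAGCTG at 195 bases. Ckm held only CAGCTG, at 249 bases. For each gene, also in the shares below, the first start listed was used. For the sodium channel gene Scn4a this put the window at chr11:106349391-106349640 on the minus strand, inside the annotated gene. That window held none of the 5. A promoter was listed for 827 of the genes called higher and 182 of those called lower. CAGCTG was in 19.7% of the former, 18.1% of the latter, 12.6% of 12127 tested genes and 12.8% of all 27025 promoters. CACCTG was in 23.2% of the promoters of genes called higher, 16.5% of those called lower, 15.5% of those tested and 17.1% of all. The MEF2 box was in 49 of 827 (5.93%), in none of 182, in 1.81% of those tested and in 3.01% of all. For CATTCC the shares were 13.5%, 12.1%, 10.8% and 12.6% in the higher, lower, tested and whole sets, and for the CArG box 1.57%, 0.55%, 1.18% and 1.4%. These shares describe letters in a window, not binding.

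Among 14 myogenic transcription factors 4 were called higher, against 7.18% of all genes, and none lower. The list median log2 fold change was 0.47 against -0.03 over all 16688 genes tested. Myf6 (MRF4), the myogenic factor of maturing fibres on chromosome 10 (107492853 to 107494737), was at 2.02, 1.83 and 1.01 CPM on day 2 and at 35.8, 43.7 and 35.1 CPM on day 4. Its log2 fold change was 4.54 (SE 0.35, adjusted p 7.9e-09), and it rose in all 3 pairs. With MyoD alone Myf6 stayed at or below 0.11 CPM in all 6 libraries. The test of the difference between the 2 treatments gave an adjusted p of 0.0967, which missed the threshold.

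Mef2c, the MEF2 factor most tied to sarcomere genes, rose from 272, 459 and 267 CPM to 879, 1248 and 883 CPM (log2 change 1.62, SE 0.39, adjusted p 0.00497), and its adjusted p was 0.0583 without replicate 3. The homeobox gene Pitx3 rose from a mean of 4.56 to 12.6 CPM. Myog, whose product myogenin drives terminal differentiation, was at 584, 895 and 668 CPM on day 2 and at 1022, 1128 and 828 CPM on day 4. It rose in each same-numbered pair, but the days overlapped and it was not called (adjusted p 0.598). Six4 and Eya1, which act upstream of the myogenic factors, had log2 fold changes of -0.74 and -0.79 and did not reach the fold threshold. Mef2a averaged 881 ± 169 CPM on day 2 and was lower on day 4, at 626 ± 52 CPM (SD, n = 3), without reaching the fold threshold.

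A pair of muscle stem cell genes was detected on day 4 only, at very low levels. Myf5, the earliest myogenic factor of the embryo, had 0 reads in each day 2 library and 8, 30 and 16 reads in the day 4 libraries. Against a floor of 3 reads per library this was at least 6.38-fold higher. Pax7, the stem cell factor that the reporter follows, had 0 reads on day 2 and 5, 4 and 25 on day 4, at least 3.84-fold higher by the same floor. Both were called higher by edgeR's quasi-likelihood test (adjusted p 2.1e-04 for Myf5 and 0.00684 for Pax7). Without replicate 3, which held most Pax7 reads, Pax7 had an adjusted p of 0.148. Intervals and floors of this kind cover counting error only.

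Of the 17 progenitor genes tested, those 2 were called higher and 1 lower, against 7.18% and 1.46% of all genes (list median 0.10). The gene called lower was Met, the receptor of hepatocyte growth factor on satellite cells. It fell from 35.9, 25.2 and 26.7 CPM to 11.7, 6.57 and 7.99 CPM (log2 change -1.76, SE 0.28, adjusted p 1.2e-04), with no overlap between the days. Met was at 61.1 CPM on average in the untreated MEFs. With MyoD alone its log2 fold change was -0.92 by the same test (adjusted p 0.0243), below the fold threshold. The adhesion molecule Vcam1 went from 155 to 71.4 CPM on average and was not called (adjusted p 0.105), though it was called in 2 of 12 alternatives. Cdh15, Itga7, Sdc4, Spry1 and Notch3, genes of muscle progenitors, had log2 fold changes between -0.07 and 0.40 and were not called.

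**Figure D2:**
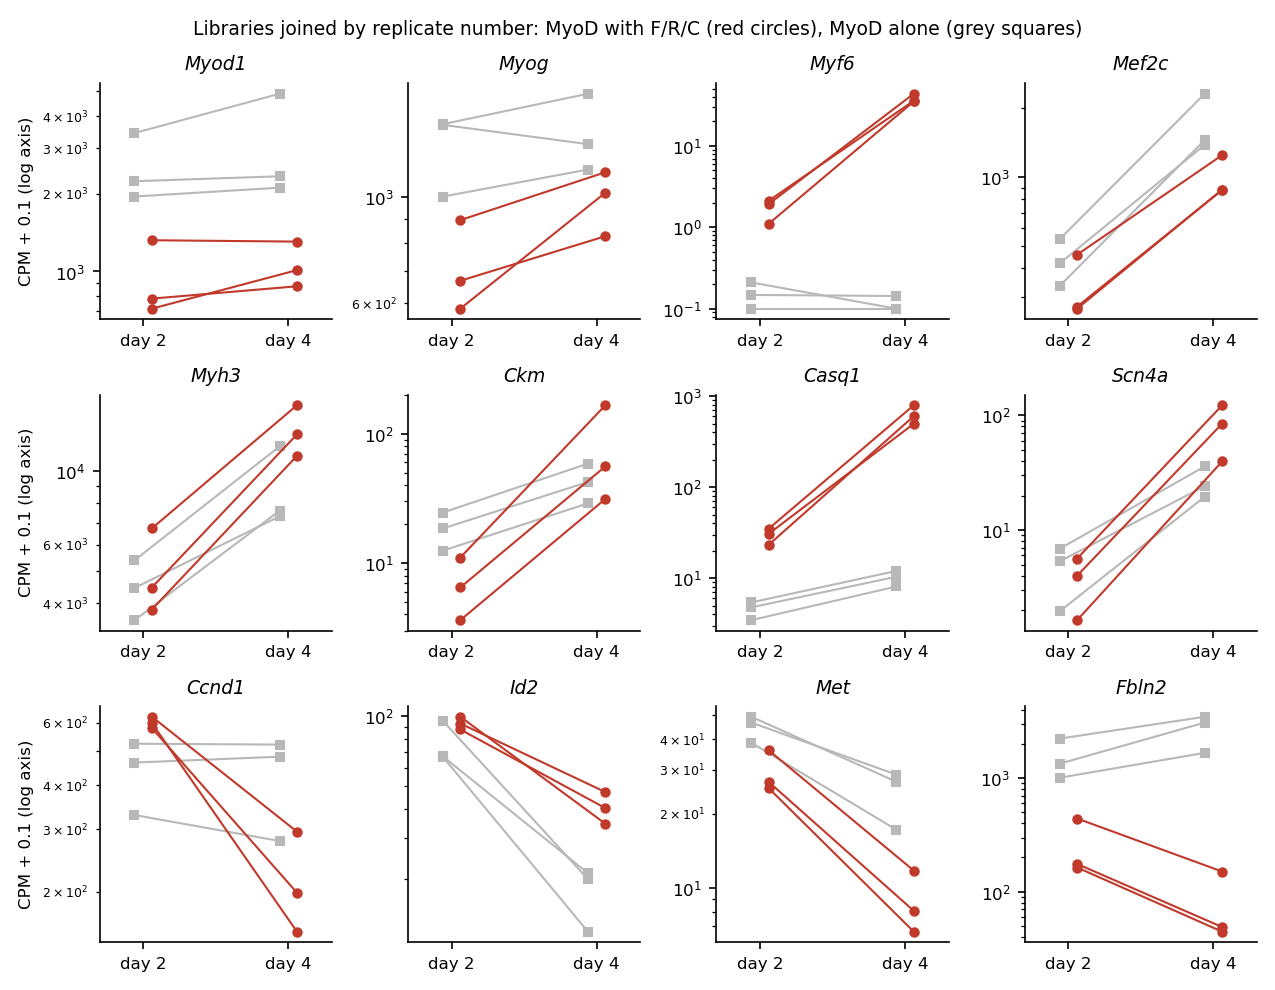
Level of 12 genes in each library of day 2 and day 4, in CPM plus 0.1 on log axes, with libraries of one replicate number joined; red circles are MyoD with F/R/C and grey squares MyoD alone. Myod1 runs flat in both, Myf6 and Casq1 climb with F/R/C from 1.62 to 38.2 and from 29.6 to 632 CPM on average, and Ccnd1 and Fbln2 go down with F/R/C.

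The sarcomere lists held the broadest changes. In the thick filament and M-band list 16 of 21 members were called higher and none lower, against 7.18% of all genes; 4 of the calls held in all 12 alternative analyses and 10 with each replicate left out. The list median was 1.85, all 21 log2 fold changes were above 0, and in 20 members every day 4 library lay above every day 2 library, as in 17.5% of all genes tested. Myh4, a fast adult myosin heavy chain, rose from 70.8, 96.5 and 88.1 CPM to 607, 798 and 1500 CPM (log2 change 3.44, SE 0.47, adjusted p 2.2e-05). Myh8, the perinatal chain, rose from 499, 955 and 458 CPM to 3391, 6455 and 5637 CPM (3.05, SE 0.67, adjusted p 0.00258). The slow myosin binding protein gene Mybpc1 rose from 68.5, 124 and 74.4 CPM to 653, 1304 and 1172 CPM, and its fast counterpart Mybpc2 from a mean of 0.0756 to 3.66 CPM. The embryonic chain Myh3, the most abundant of them, was at 3837, 6728 and 4468 CPM and then at 11107, 15771 and 12892 CPM, with no overlap and a change of 1.42 in log2 units (SE 0.90, adjusted p 0.269). It was not called with the 33 libraries in the fit and was called with the 6 compared libraries alone (adjusted p 1.04e-04). In the untreated MEFs, which entered the larger fit, Myh3 was at 48.2, 0 and 0 CPM. The part of that spread in the p was not tested. Titin (Ttn) and the light chain Mylpf had log2 fold changes of 0.72 and 1.18 and were not called, though Mylpf was called in 3 of 12 alternatives. Without replicate 3 the list had 10 called members.

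The myosin heavy chains also changed in proportion. As a share of summed TPM (transcript abundance corrected for transcript length) of 10 sarcomeric heavy chain genes, embryonic Myh3 held 74.8%, 75.4% and 80.7% on day 2 and 60.5%, 57.1% and 56.4% on day 4. Perinatal Myh8 went from 9.59%, 10.5% and 8.13% to 18.1%, 22.9% and 24.2%, and Myh4 from 1.37%, 1.07% and 1.58% to 3.25%, 2.85% and 6.47%. None of these ranges overlapped between the days. Myh1, the fast chain of type IIx fibres, held 9.0% on average on day 2 and 10.1% on day 4, with overlap but a rise in each same-numbered pair. With MyoD alone the same Myh3 share went from 89.0% to 53.4% and the Myh8 share from 6.86% to 36.1% on average, while Myh1 was at 0.369% and 0.183%. An exact permutation test of 3 libraries against 3 cannot give a two-sided p below 0.1, so no p is given for shares.

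**Figure D3:**
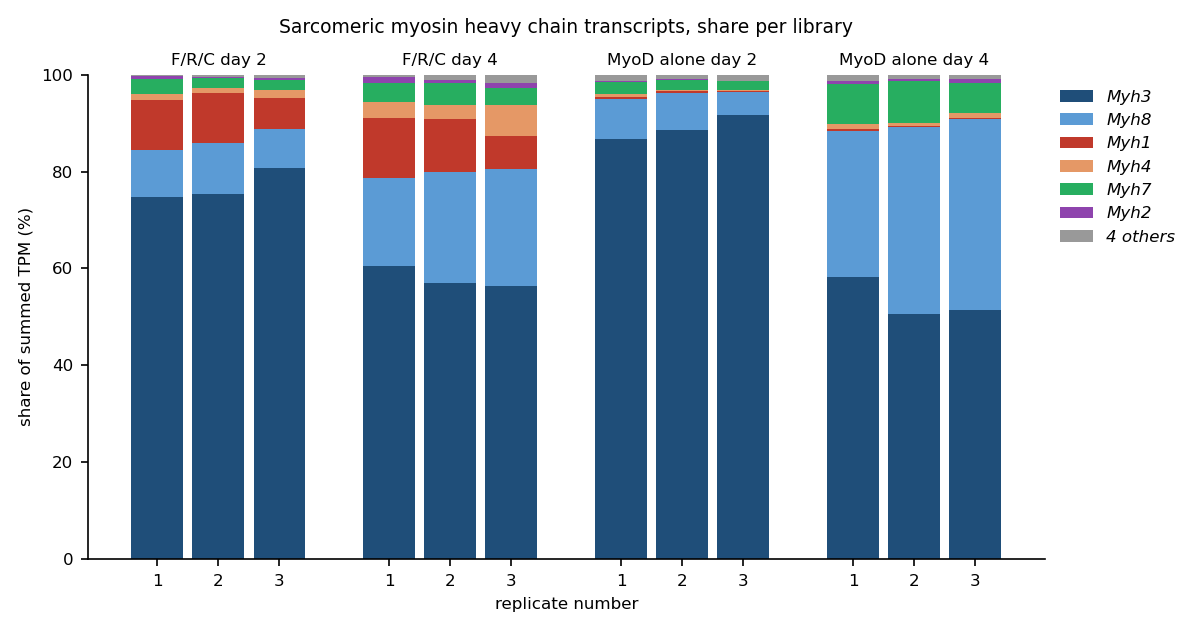
Share of each sarcomeric myosin heavy chain in the summed TPM of 10 such genes, 1 bar per library, in percent; the replicate number stands under each bar and the 3 bars of a group stand together. Myh3 is at 60.5% or less in all day 4 libraries with F/R/C while Myh8 grows, and Myh1 is a visible band only with F/R/C.

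In the thin filament and Z-disc list 17 of 25 members were called higher, against 7.18% of all genes, and none lower, with a median of 1.53. Of the calls, 6 held in all 12 alternatives and 10 remained without replicate 3. Myoz1 (chromosome 14, 20649107 to 20656540), a calcineurin-binding Z-disc protein of fast fibres, had the largest rise among the named genes with at least 10 CPM. It went from 1.23, 2.15 and 3.06 CPM to 40.6, 119 and 170 CPM (log2 change 5.58, SE 0.48, adjusted p 5.7e-08). Replicate 1 was the lowest on both days. Tmod4, which caps thin filaments, had 3, 2 and 4 reads on day 2 and 30, 116 and 494 on day 4. Telethonin (Tcap), Nrap and Lmod2, proteins of the Z-disc, of forming myofibrils and of thin filament ends, had log2 fold changes of 3.62, 2.96 and 2.59.

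Skeletal actin, Acta1, rose from 3054, 5746 and 3111 CPM to 8120, 11623 and 9870 CPM (1.36, SE 0.35, adjusted p 0.00877). Its adjusted p was 0.0534 without replicate 1 and 0.106 without replicate 3. Cardiac actin, Actc1, went from 3370 to 8212 CPM on average and was not called (adjusted p 0.259), though it was called in 3 of 12 alternatives. By TPM the split between them was close on both days, with Acta1 at 57.6% of the pair on day 2 and 58.4% on day 4 on average. Fast troponin C (Tnnc2) took 23.3%, 24% and 31.3% of troponin C TPM on day 2 and 37.8%, 41.8% and 45.5% on day 4, a shift from the slow form without overlap. Tpm3, a tropomyosin of slow fibres and of non-muscle cells, was the only member below 0 (log2 change -0.45, not called).

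Of 21 genes that couple excitation to contraction 13 were called higher, against 7.18% of all genes, and none lower, with a median of 1.57. Scn4a, the muscle sodium channel (chromosome 11, 106318592 to 106353288), rose from 1.53, 3.89 and 5.53 CPM to 39.6, 84.8 and 123 CPM (4.49, SE 0.32, adjusted p 7.9e-09). Casq1, the calcium store protein of fast fibres (chromosome 1, 172209894 to 172219868), rose from 30.7, 34.9 and 23.2 CPM to 498, 795 and 603 CPM (4.42, SE 0.45, adjusted p 5.1e-07). For both, the lowest day 4 library lay far above the highest day 2 library. The calcium channel subunits Cacna1s and Cacng1 and the calcium pump Atp2a1 had log2 fold changes of 2.32, 2.53 and 2.30. The release channel Ryr1 went from 506 to 855 CPM on average without a call. Without replicate 3 the list had 7 called members, and 6 calls held in all 12 alternatives.

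At the nerve-muscle contact, 5 of 11 tested genes were called higher, against 7.18% of all genes, and none lower (median 1.10). Acetylcholinesterase (Ache) rose from 6.05, 2.47 and 3.29 CPM to 17.3, 29.5 and 53.3 CPM (3.03, SE 0.59, adjusted p 9.5e-04), and Colq, its collagen tail, from 12.5 to 62.1 CPM on average. The receptor subunit Chrna1 rose from 253, 579 and 312 CPM to 1139, 1575 and 1008 CPM, and the kinase Musk from 36.7, 66.8 and 42.1 CPM to 176, 256 and 202 CPM. Without replicate 3 Colq lost its call (adjusted p 0.0506), and the receptor subunit Chrnd lost its call without any 1 of the replicates (0.0672, 0.0821 and 0.0945). The fetal receptor subunit Chrng was not called (1.10, adjusted p 0.158), though it was called in 3 of 12 alternatives. Chrne, the adult subunit, was too low to test. Of 13 fusion and membrane repair genes 3 were called higher, against 7.18% of all genes: Cav3 and Cavin4, which form muscle caveolae, and Klhl41. Klhl41 lost its call without any 1 of the replicates (adjusted p 0.0631, 0.0729 and 0.0996), and Cavin4 without replicate 1 (0.0571) or 3 (0.0511). The fusion proteins Mymk and Mymx had log2 fold changes of 1.21 and 0.81 and were not called. Of the 12 alternatives, 3 called Mymk and 2 called Mymx.

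Among 19 genes of muscle energy supply 11 were called higher, against 7.18% of all genes, and none lower (median 1.58). Of these calls 7 held in all 12 alternatives. Ckm, muscle creatine kinase, rose from 3.51, 6.36 and 10.9 CPM to 31.2, 55.9 and 166 CPM (3.45, SE 0.37, adjusted p 9.9e-07). Fabp3, which carries fatty acids, rose from 15.0, 25.9 and 17.4 CPM to 235, 495 and 200 CPM (3.91, SE 0.35, adjusted p 1.0e-07). The mitochondrial creatine kinase Ckmt2, AMP deaminase Ampd1 and glycogen phosphorylase Pygm had log2 fold changes of 4.01, 3.26 and 2.67. The glucose transporter Slc2a4 (GLUT4) rose from 8.97 to 47.6 CPM on average. Among glycolytic genes Pgam2 was called higher at 1.75, while Ldha at 0.39, Pfkm at 0.79 and Eno3 at 0.05 were not called. Of 12 muscle splicing regulators 3 were called higher, against 7.18% of all genes. They were led by Rbfox1, which went from 2.192, 2.47 and 2.70 CPM to 19.5, 33.9 and 48.5 CPM.

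Outside the lists, the rule for the 12 largest rises added Car3, Myot, Atp1b4, Myh6, Galnt6, Cilp2, Frem2 and Armh4 to the genes above. Car3, a carbonic anhydrase of slow muscle and fat, rose from 88.0, 62 and 16 CPM to 2691, 2856 and 1035 CPM (5.52, SE 0.83, adjusted p 7.2e-05). Atp1b4, a muscle-specific relative of the sodium pump beta subunits, rose from 0.745, 0.824 and 1.96 CPM to 11.4, 38.0 and 96.2 CPM, with replicate 3 highest on both days. Myot, the Z-disc protein myotilin, had a log2 fold change of 5.46. Galnt6 was far higher in replicate 3 on day 4, at 34.0 CPM against 0.947 and 3.54 CPM in the others. On day 2 it was at 0.0877, 0 and 1.19 CPM, so the days overlapped. Its log2 fold change was 5.38 without replicate 3, from day 2 levels of 0.0877 and 0 CPM. The Galnt6 call was lost in 2 of 12 alternatives, both of them fits without the replicate number. The calls of all 12 largest rises held with each replicate left out, and 11 of them held in all 12 alternatives.

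No gene of the cell cycle list was called, against 8.64% of all genes. The list had 24 tested members, 23 of them below 0, with a median log2 fold change of -0.60, and in 16 the day 4 libraries lay wholly below the day 2 libraries, as in 18.5% of all genes tested. The mitotic kinase gene Cdk1 was at 51.0, 49.98 and 69.1 CPM on day 2 and at 29.2, 27 and 38.1 CPM on day 4 (adjusted p 0.195). Mki67, the proliferation marker, was at 79.8, 57.1 and 79.2 CPM and then at 39.4, 37.6 and 63.8 CPM. It was lower on day 4 in each same-numbered pair, but the days overlapped (adjusted p 0.471). Over the 12 alternatives the adjusted p ran from 2.84e-04 to 0.429 for Cdk1 and from 0.013 to 0.735 for Mki67. Neither gene reached the fold threshold in any of them. Genes of replication and mitosis were still measured on day 4.

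The D-type cyclins that drive entry into the cycle did not move together. Ccnd1 fell from 625, 599 and 580 CPM to 295, 154 and 198 CPM (-1.54, SE 0.28, adjusted p 5.3e-04), and Ccnd2 from 1201, 948 and 1011 CPM to 593, 339 and 394 CPM (-1.29, SE 0.29, adjusted p 0.00313). The days did not overlap for either. The call of Ccnd2 was lost without replicate 2 (adjusted p 0.059). Ccnd3, the D cyclin kept in muscle differentiation, went from 835 to 970 CPM without a call. The inhibitor Cdkn1a (p21) stayed at 1435 and 1481 CPM on average. With MyoD alone Ccnd1 and Ccnd2 had log2 fold changes of -0.06 and 0.02. The tests of the difference gave adjusted p of 0.0504 and 0.105, both above the threshold.

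Of 23 fibroblast and matrix genes tested, 3 were called lower and none higher (median -0.43), against 1.46% of all genes called lower, and no fibroblast call held in all 12 alternatives. Fbln2, the matrix protein fibulin 2 (chromosome 6, 91212455 to 91272540), fell from 441, 175 and 163 CPM to 150, 48.6 and 44.2 CPM (-1.73, SE 0.37, adjusted p 0.00202). Col5a2 fell from 1153, 1073 and 1080 CPM to 741, 361 and 493 CPM (-1.13, SE 0.27, adjusted p 0.00426), and Col1a2, a chain of collagen I, from 1086 to 530 CPM on average (-1.08, adjusted p 0.019). Col1a2 lost its call without replicate 2 (adjusted p 0.199) and without replicate 3 (0.117), and Col5a2 without replicate 2 (0.115). Col1a1, the partner chain, had a log2 fold change of -0.19, and Pdgfra and Prrx1, markers of mesenchyme, had -0.18 and -0.43; none was called. Lum and Dcn, small proteoglycans, were at 1.37 and 0.41, also without a call.

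Of the other 10 genes among the 12 largest falls, several act at the cell surface or outside the cell. Gpnmb, a transmembrane glycoprotein, fell from 246, 195 and 144 CPM to 78.9, 36.0 and 21.1 CPM (-2.21, SE 0.43, adjusted p 9.4e-04), and Cplx2, a complexin of vesicle release, from 111, 112 and 67.6 CPM to 34.5, 25.0 and 22 CPM (-1.83, SE 0.22, adjusted p 5.1e-06). Clca3a1 and Cpa4, a calcium-activated channel regulator and a carboxypeptidase, had log2 fold changes of -2.52 and -1.80. Gdpd2, Aldh1a7 and Thsd7a had -2.62, -1.87 and -1.68 but lost their calls without 1 or 2 of the replicates. Gvin1, Ntm and Smoc1 lost theirs without any 1 of the 3. In Smoc1 replicate 1 stood apart, at 31.5 CPM on day 2 against 8.93 and 1.78 CPM. Of the 12 largest falls, 6 kept their calls with each replicate left out and 4 in all 12 alternatives.

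In the pathways that F/R/C is known to act on, few genes were called. F/R/C was present on both days, so these changes do not measure its effect. In the Wnt list 4 of 13 were called higher, against 7.18% of all genes, and none lower. The list median was 0.30, and 0.24 with MyoD alone, where 2 were called higher, against 5.02% of all genes. Axin2, a feedback inhibitor and common readout of beta-catenin, rose from 3.07, 7.19 and 7.31 CPM to 16.1, 20.1 and 15.0 CPM (1.54, SE 0.37, adjusted p 0.0054), and its adjusted p was 0.057 without replicate 1. Notum, a secreted Wnt deacylase, went from 1.53, 0.275 and 0.914 CPM to 6.59, 1.77 and 3.02 CPM (2.06, SE 0.47, adjusted p 0.00362). Nkd1 and Tcf7 were called at 1.17 each. Tcf7 lost its call without any 1 of the replicates and Nkd1 without replicate 3 (adjusted p 0.0612).

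Of 15 cAMP and CREB targets, 1 was called higher and 1 lower, against 7.18% and 1.46% of all genes. The share called higher was near that of all genes. The list median was -0.04, and 0.32 with MyoD alone. The early response gene Fos rose from 24.8, 16.7 and 24.5 CPM to 43.6, 43.5 and 66.8 CPM (1.21, SE 0.17, adjusted p 3.6e-05). Crispld2, a secreted protein induced by hormones, fell from 22.1, 14.8 and 29.7 CPM to 11.6, 5.51 and 6.21 CPM (-1.5, SE 0.24, adjusted p 1.6e-04). By the test of the difference, Fos rose more with MyoD alone (-1.11, SE 0.24, adjusted p 0.0161). Crispld2 differed by -1.47 (SE 0.34, adjusted p 0.0238). Both of these calls were lost without any 1 of the replicates. The Nr4a receptors, which cAMP induces quickly, had log2 fold changes of 0.40, -0.47 and -0.40 and were not called. None of the 18 TGF-beta and contractile genes was called, against 8.64% of all genes (median -0.23). With MyoD alone the median was 0.22 and 2 were called lower, against 1.26% of all genes. Acta2, Tagln and Cnn1 had log2 fold changes of -0.36, -0.67 and -0.48. Without a minimum fold, the receptor gene Tgfbr1 and the ligand gene Tgfb3 passed above 0 (0.61 and 0.68, adjusted p 0.0103 and 0.0272) and the receptor gene Tgfbr2 below 0 (-0.77, adjusted p 0.0188).

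Myostatin (Mstn), the TGF-beta family ligand by which muscle limits its own growth, was called higher, from 185, 303 and 232 CPM to 660, 870 and 516 CPM (1.47, SE 0.50, adjusted p 0.0387). The days did not overlap, but no 1 replicate could be left out without losing the call, with adjusted p from 0.111 to 0.175. It was at 1.33 and 2.28 CPM on average with MyoD alone. Its antagonist Fst went from 116 to 54.1 CPM without a call (adjusted p 0.0648), though it was called in 2 of 12 alternatives. Of 14 BMP genes and Id targets only Id2, an inhibitor of MyoD-type factors, was called, near the 8.64% of all genes. It fell from 93.0, 87.7 and 99.5 CPM to 47.1, 40.1 and 34.4 CPM (-1.24, SE 0.34, adjusted p 0.0113), and was not called without replicate 2 (0.0801) or 3 (0.123). With MyoD alone Id2 was at 76.4 CPM on day 2 and 17.5 CPM on day 4 on average. Id1 and Id3 had log2 fold changes of -0.63 and -0.74.

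Of 14 Notch genes 1 was called, near the 8.64% of all genes. The gene was the ligand Jag2, which rose from 20.7, 36.9 and 34.5 CPM to 56.5, 90.3 and 115.5 CPM (1.5, SE 0.33, adjusted p 0.00239), while the ligand Dll1 and the target Hey1 had -0.81 and -0.78. Among 13 FGF genes Fgfr2 and the target Etv4 were called lower (-1.09 and -1.10), against 1.46% of all genes. The call of Fgfr2 was lost without replicate 3 (adjusted p 0.129), and that of Etv4 without replicate 1, 2 or 3 (0.0838, 0.226 and 0.249). In the IGF and imprinted list 4 of 18 were called higher, against 7.18% of all genes, and none lower. Igfbp2, a secreted IGF binding protein, rose from 31.4, 21.8 and 18.0 CPM to 153, 114 and 76.6 CPM (2.25, SE 0.32, adjusted p 3.9e-05). Dlk1, Meg3 and Rian, neighbours in 1 imprinted cluster, were called at 1.96, 1.28 and 1.14. Dlk1 lost its call without replicate 1 (0.0581) or 2 (0.0579), and Meg3 without replicate 3 (0.0824).

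Of 15 Hox genes 1 was called, a share near the 8.64% of all genes. It was Hoxd9, higher at 1.33, whose call was lost without replicate 1, 2 or 3 (adjusted p 0.0567, 0.143 and 0.0509), while the list median was -0.56 and 14 members lay below 0. None of 13 interferon and inflammation genes was called, against 8.64% of all genes (median -0.48). Of 6 adipocyte markers 4 were called higher, against 7.18% of all genes, from very few reads. Plin1, the lipid droplet coat protein, had 0 reads on day 2 and 36, 7 and 2 on day 4, at least 4.92-fold higher against the floor of 3 reads. Adipoq, the fat hormone adiponectin, had 0, 1 and 0 reads and then 33, 10 and 3, a ratio of 47.2 with an exact 95% counting interval from 8.05 to 1903. Replicate 1 held most of these reads, and without it none of the adipocyte markers was called. The fat regulators Pparg and Cebpa were at 2.89 and 3.06 CPM on day 2 and at 2.58 and 2.55 CPM on day 4 on average. The summed level of the 6 adipocyte markers was 4.00 to 8.67 CPM on day 2 and 4.62 to 16.5 CPM on day 4, and its part in other changes was not tested.

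The change from day 2 to day 4 was then set against that of MyoD alone, in which 1047 genes were called, 837 higher and 210 lower (6.27% of those tested, 5.02% and 1.26%). The 2 comparisons share no library, but same-numbered libraries pair across them. Of the 1199 genes called higher with F/R/C, 436 were also called higher with MyoD alone, which is 36.4% of the first list and 52.1% of the second. Of the 243 called lower, 37 were also called lower with MyoD alone, 15.2% of the first list and 17.6% of the second. By the test of the difference itself, 191 genes were called (1.14%), 130 with a more positive change with F/R/C (0.779%) and 61 with a more negative one (0.366%). This count was unstable, at 57, 9 and 27 genes without replicates 1, 2 and 3.

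None of the 21 thick filament genes was called by the test of the difference, against 1.14% of all genes. The list medians were 1.85 with F/R/C and 1.52 with MyoD alone. For Myh8 the difference was -1.10 (SE 0.87) and for Mybpc1 0.41 (SE 0.74) on the log2 scale, errors too wide to show that they change alike. The muscle genes called by the test were Myoz1, Casq1, Ckm, Scn4a, Tpm1, Mef2a and Spry1 with a more positive change with F/R/C, and Sln and Chodl with a more negative one. Myoz1 was at 0.951, 1.65 and 1.22 CPM on day 2 of MyoD alone and at 1.64, 2.58 and 2.33 CPM on day 4, against 40.6 CPM or more on day 4 with F/R/C. The difference of the log2 changes was 4.77 (SE 0.71, adjusted p 8.5e-04). Casq1 went from 5.32, 4.68 and 3.36 CPM to 11.9, 10.3 and 8.02 CPM with MyoD alone, a difference of 3.23 (SE 0.61, adjusted p 0.00677). Ckm and Scn4a, which rose in both treatments, differed by 2.22 (SE 0.49, adjusted p 0.0181) and 1.88 (SE 0.41, adjusted p 0.02). The call of Myoz1 was lost without replicate 2 (adjusted p 0.081). Those of Casq1, Ckm and Scn4a were lost without any 1 of the replicates, with adjusted p up to 0.198, 0.286 and 0.386.

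**Figure D4:**
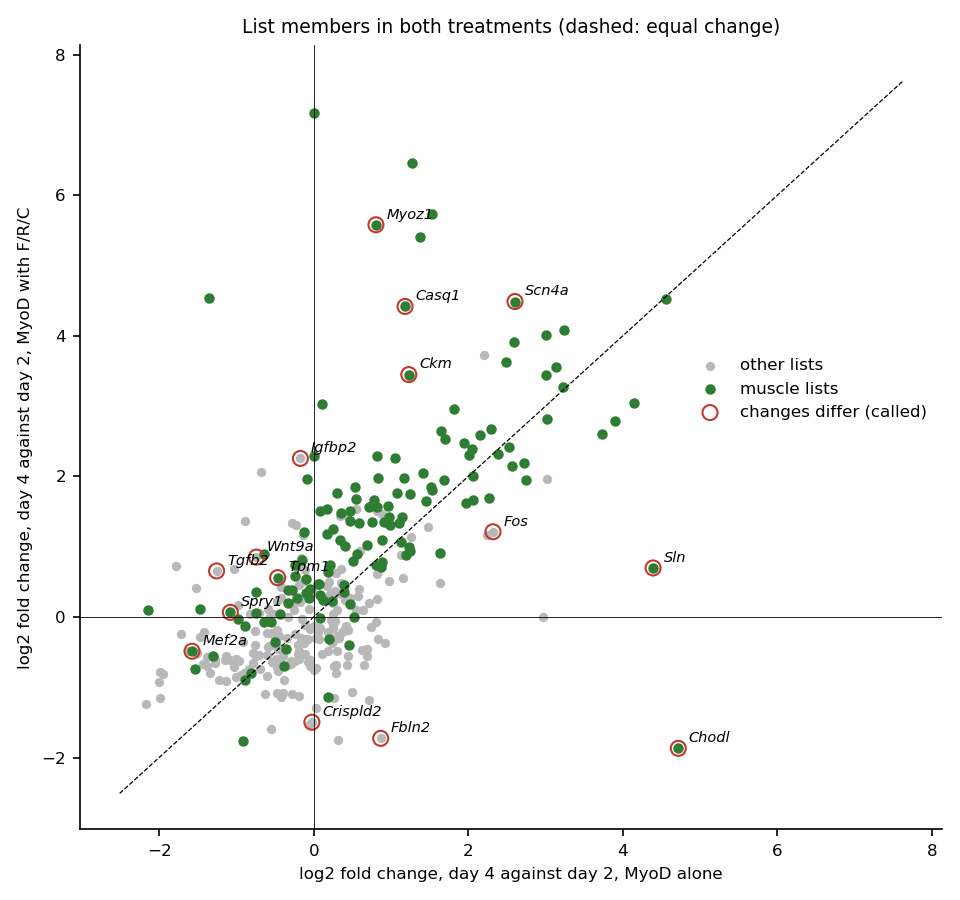
Log2 fold change from day 2 to day 4 with MyoD and F/R/C (vertical) against MyoD alone (horizontal) for list members, 3 libraries per group; green points belong to the muscle lists, grey points to other lists, the dashed line marks equal change and red rings mark genes whose changes differed by the test. Myoz1 and Casq1 lie far above the line, and Chodl and Sln far below it.

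Sema4d, a semaphorin with roles in cell guidance, rose with F/R/C from 9.03, 5.58 and 9.14 CPM to 48.1, 45.3 and 59.2 CPM (2.68, SE 0.35, adjusted p 1.5e-05). With MyoD alone it was at 10.8, 13.0 and 11.7 CPM and then at 6.61, 6.69 and 6.80 CPM, and the difference was 3.51 (SE 0.49, adjusted p 4.7e-04). Igfbp2 differed by 2.43 (SE 0.44, adjusted p 0.00533), with no call under MyoD alone. Both calls were lost without replicate 2 (adjusted p 0.0526 and 0.155), and that of Igfbp2 also without replicate 1 (0.063). Ak4 and Slc2a6, an adenylate kinase and a sugar transporter, differed by 3.08 and 2.89 and were called higher with F/R/C. For Itgb4, the integrin of hemidesmosomes, the difference of 4.205 came mainly from MyoD alone, where it fell from 60.6, 102.5 and 101.6 CPM to 15.9, 18.8 and 8.84 CPM.

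Fbln2 fell with F/R/C while with MyoD alone it was at 1531 and 2755 CPM on average. The difference was -2.59 (SE 0.51, adjusted p 0.00899). That call was lost without any 1 of the replicates (adjusted p 0.0542, 0.22 and 0.11). Sarcolipin (Sln), which slows the calcium pump, was already at 10.2, 9.89 and 2.88 CPM on the second day of F/R/C and was at 11.7, 14.8 and 9.05 CPM on day 4. With MyoD alone it rose from 0.760, 0.882 and 0.655 CPM to 13.5, 22 and 13.5 CPM, and the difference was -3.69 (SE 0.38, adjusted p 3.5e-05). It kept its call with each replicate left out. Chodl, a surface protein of some muscle progenitors, was at 0.921, 0.229 and 0.320 CPM and then at 0.215, 0.152 and 0.0457 CPM with F/R/C, and rose to 6.61, 18.0 and 4.33 CPM with MyoD alone. The difference was -6.59 (SE 0.92, adjusted p 4.7e-04), also kept in each leave-one-out fit. Myo1a, Dio2, Nxf7, Ramp1 and Afap1l2 completed the named genes, with differences from -3.84 to -2.97, and of these only Afap1l2 was called with F/R/C (1.42, against 4.39 with MyoD alone).

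**Figure D5:**
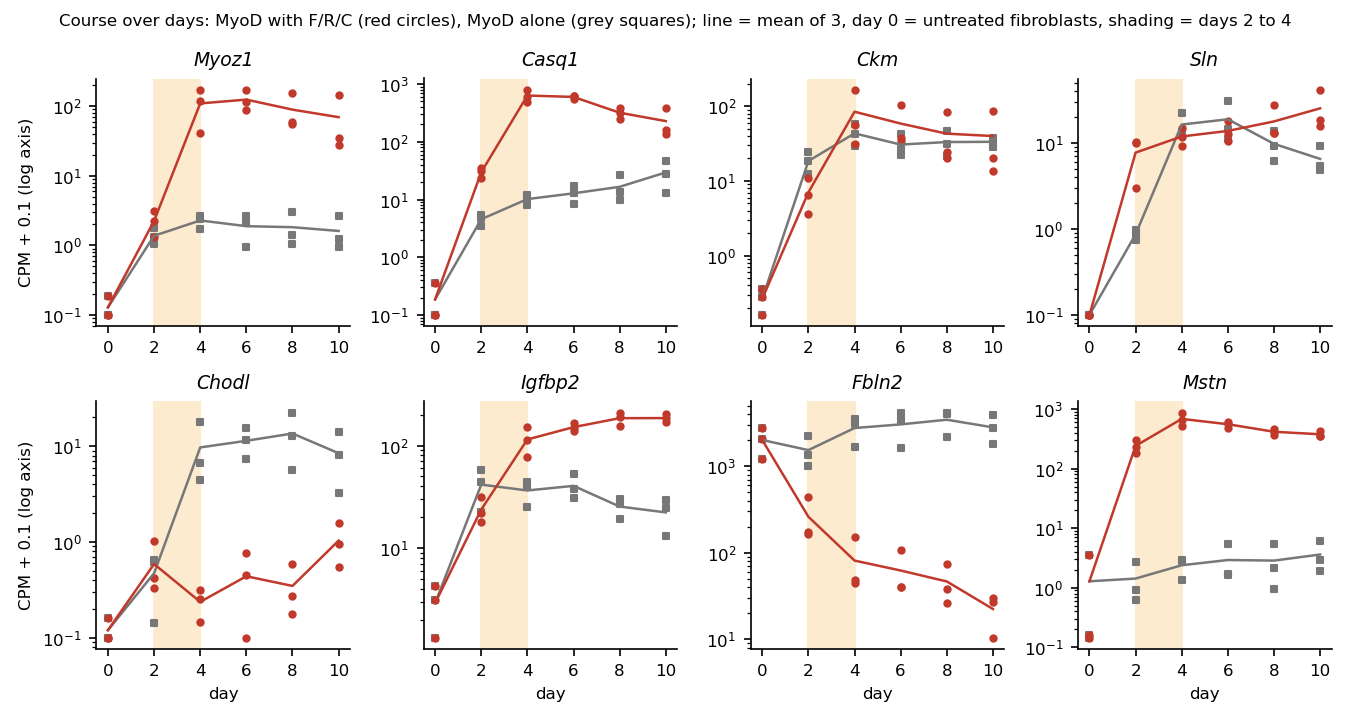
Levels of 8 genes over the whole course in CPM plus 0.1 on log axes, each point 1 library and each line the mean of 3, with MyoD and F/R/C in red, MyoD alone in grey, untreated MEFs at day 0 and days 2 to 4 shaded. Casq1 and Myoz1 reach with F/R/C levels that MyoD alone does not reach by day 10, Fbln2 keeps going down with F/R/C, and Sln ends days 2 to 4 at similar levels in both.

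The later days place the day 4 levels within the course. Casq1 with F/R/C was at 632 CPM on day 4, 598 on day 6 and 228 on day 10 on average, so it did not go on rising. Myoz1 was at 110 CPM on day 4 and 125 on day 6, and Mstn at 682 and 555 CPM. Igfbp2 went on from 114 CPM to 151 on day 6 and 185 on day 10. Fbln2 went from 81.0 CPM on day 4 to 22.3 on day 10. Pax7 rose beyond its day 4 level, to 4.44 CPM on day 6 and 64.5 on day 10, and Myf5 to 2.51 and 3.6. These are levels with no test, since the question here is days 2 to 4.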

How the data were processed

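Poly-A RNA of mouse cells was sequenced as stranded single-end reads of 100 bases. Per the submitters' processing notes, the authors used bcl2fastq 2.19, Trimmomatic 0.36, kallisto 0.44, edgeR 3.28 and build GRCm38.p6; the role of each is not stated. The deposited tables give estimated counts and TPM per transcript for each library, both as the authors made them. Estimated counts were summed per gene through GENCODE M21 (121104 of 121843 transcripts matched, holding at least 99.4% of reads) and rounded to whole numbers. Reads shared by near-identical genes or isoforms are split by the estimate, so values of close paralogs are less certain. TPM served only for shares within gene families. Promoters came from the RefSeq table for GRCm38.p6.

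The test was edgeR 4.0.16 (R 4.3.3), quasi-likelihood with TMM scaling and filterByExpr, on 33 libraries (untreated MEFs and days 2 to 10 of both treatments, 15643670 to 28209714 reads) with a coefficient per group and the replicate number as a block. The same fit tested day 4 against day 2 with F/R/C, with MyoD alone, and the difference of these changes. Levels are TMM-scaled CPM; the summed marker levels are CPM of the library total. The numbers were taken to pair libraries because same-numbered libraries of day 2 and day 4 deviated together from their group means (r = 0.656, 0.665 and 0.569 with F/R/C, against -0.417 to -0.156 for other numbers). Deviations from a group mean cancel within the group, so the negative values follow from the positive ones and are no separate evidence. Xist and Y-linked genes followed the numbers too. Alternatives were no block, the compared libraries alone, all 45 libraries, RLE size factors, no filter, DESeq2 1.42.0, limma 3.58.1 (voom), no minimum fold change and each replicate left out. Tested on simulated data with 200 genes changed 4-fold, the F/R/C contrast called 151 of them (75.5%) and 8 unchanged genes among 16494 tested. The simulated counts were drawn from the same model with its own fitted spread. They therefore check the procedure and not the error rate on the real libraries.

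Named genes were Myod1, the 12 largest rises and 12 largest falls among called genes with at least 10 CPM in the higher group and the same direction in all 3 pairs, without unnamed gene models and pseudogenes, the 6 largest differences between treatments each way, and list members, called ones first. The comparison, the 22 gene lists and the 9 marker lists were chosen with earlier results of these data known. Myf5 and a few others stand in more than 1 list.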

Additional observations from a re-analysis of the deposited data

Results flagged for a closer look

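Changes from day 2 to day 4 that differed between F/R/C and MyoD alone, by the interaction contrast of edgeR's quasi-likelihood test over 16688 genes, are given here as the difference of the log2 fold changes (F/R/C minus MyoD alone, 3 libraries per group). More positive with F/R/C were Myoz1 at 4.77, Itgb4 at 4.21, Sema4d at 3.51, Casq1 at 3.24, Ak4 at 3.08, Slc2a6 at 2.89, Igfbp2 at 2.43, Ckm at 2.22, Tgfb2 at 1.91, Scn4a at 1.88, Wnt9a at 1.59, Tubb3 at 1.54, Spry1 at 1.15, Mef2a at 1.09 and Tpm1 at 1.03. Their adjusted p ranged from 4.7e-04 (Sema4d) to 0.0473 (Wnt9a). More negative were Chodl at -6.59, Myo1a at -3.84, Sln at -3.69, Dio2 at -3.14, Nxf7 at -3.10, Ramp1 at -2.99, Afap1l2 at -2.97, Fbln2 at -2.59, Crispld2 at -1.47 and Fos at -1.11, with adjusted p from 3.5e-05 (Sln) to 0.0377 (Ramp1).

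Mef2a changed by -0.49 with F/R/C and by -1.57 with MyoD alone, and Spry1 by 0.07 and -1.08. Tgfb2, a TGF-beta ligand, changed by 0.65 and -1.26. Only Sln and Chodl among these kept the call with each replicate left out.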

How the results depend on the processing

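No named value changed sign under an alternative while called. With F/R/C, 1442 genes were called, 508 with all 45 libraries and no block (93.3% of them higher, against 83.1%) and 3474 with no minimum fold change (55.8% higher). The 45-library call list shared 504 genes with the 1442. Leaving out 1 replicate gave 720 to 1178 calls. Without the replicate block 973 genes were called, and with the 6 compared libraries 1550 with the block and 975 without it. RLE size factors, no filter, DESeq2 and voom gave 1458, 1291, 1599 and 1442.

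The difference between treatments was less stable, at 191 calls. Without the replicate block it had 66, with the compared libraries alone 687 with the block and 82 without it, with all 45 libraries 5, with DESeq2 342 and with no minimum fold change 289. Leaving out 1 replicate gave 9 to 57. For MyoD alone, 1047 calls became 432 with all 45 libraries, 2066 with no minimum fold change (59.5% higher, against 79.9%) and 463 to 744 with 1 replicate left out. The cause of these shifts was not tested; leaving out a replicate also leaves fewer samples. List counts moved likewise: without replicate 3, called members fell from 16 to 10 for the thick filament, 17 to 10 for the thin filament, 13 to 7 for excitation-contraction coupling and 11 to 9 for energy metabolism. Depth limits genes such as Pax7 and Plin1, called from few reads: 38 genes called higher had 0 reads on day 2.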

Other observations

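The genes given here stand outside the lists and were chosen one by one after their values were seen, so they stand for no group. Levels are means of 3 libraries and tests are edgeR's quasi-likelihood fit over 16688 genes. The titin-binding and stretch-sensing genes Ankrd2, Mypn and Csrp3 rose, Ankrd2 from 10.9 to 154 CPM (log2 fold change 3.91, SE 0.34, adjusted p 5.2e-08), Mypn by 4.05 and Csrp3 by 3.63. The small heat shock proteins of muscle Hspb2, Hspb3 and Hspb7 rose by 2.81, 2.24 and 2.83, and Trim72, which reseals torn membranes, by 2.74. Glycogen-targeting phosphatase subunits rose, Ppp1r3a by 2.94 and Ppp1r3c by 2.93. Ppp1r3c also differed from MyoD alone (2.54, adjusted p 0.0235). Cd36, a fatty acid transporter, rose from 20.3 to 122 CPM, and Fgf6, a muscle growth factor, from 27.2 to 218 CPM.

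The carnitine palmitoyltransferases, which bring fatty acids into mitochondria, moved in opposite directions. The muscle form Cpt1b rose from 15.6 ± 3.44 to 74.5 ± 28.9 CPM (2.24, adjusted p 0.0245), and the widely expressed form Cpt1a fell from 332 ± 20.8 to 144 ± 33.7 CPM (-1.23, adjusted p 0.00426; SD, n = 3 each). Among cytoskeletal genes of many cell types, Actg1 fell from 3083 ± 239 to 1516 ± 348 CPM (-1.05, adjusted p 0.0098), Flna from 2193 to 999.5 CPM and Cald1 from 873 to 432 CPM. Actb missed the minimum fold at -0.94. The class I antigen genes B2m and H2-D1 fell by 1.23 and 1.18 on the log2 scale, and H2-K1, at -0.79, was not called. Hoxb3, Hoxb6 and Hoxb8 fell by 1.11, 1.10 and 1.13, in 3 of 3 pairs each. How these genes respond to the alternative analyses was not computed.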
